A study of Mus musculus with 24 samples.

Results

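The ventral hippocampus was compared with the dorsal hippocampus of the same animals in mice sired by males given nicotine. The members are the 12 libraries of the nicotine-sired animals, 6 dorsal and 6 ventral, out of 24 in the series. They were chosen by their titles: those with the number 492 are from males and those with 493 from females, and the letter A, B or C joins the dorsal and the ventral library of 1 animal. The 6 animals, 3 males and 3 females out of 12 animals in all, were C57BL/6J offspring of males treated chronically with nicotine, and carry no treatment of their own in the labels. The other 12 libraries have the same layout and come from offspring of males treated chronically with saline. The labels name no dose, age, dam or litter. The title number differs between the sexes and between the sire treatments, so what it marks cannot be told apart from either, whereas the regions were compared within each animal. Nothing says whether the 3 animals of a number had different fathers, so p-values measure the spread between these animals.

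The long axis of the rodent hippocampus runs from a dorsal pole, known for its part in spatial memory, to a ventral pole that exchanges fibres with the amygdala, hypothalamus and prefrontal cortex and is known for its part in fear and stress responses. Along it lie the same fields, the dentate gyrus, CA3, CA2, CA1 and subiculum, but their neurons differ in gene expression by position, in part through transcription factors and secreted signals such as retinoic acid and Wnt proteins that pattern the axis in development. In whole tissue a gene's level reflects both how many cells of a type were dissected and how much RNA each makes, and fewer cells and less RNA per cell cannot be told apart.

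The counts summed to between 33914755 and 47486547 per library (median 39944717). Levels are given as CPM, the usual depth-normalised read count, here with library totals scaled for composition (TMM). Differences are log2 fold changes of ventral over dorsal from a model with 1 term per animal, so a positive value is a higher level in the ventral hippocampus. Where no SD is named, the value after ± is an approximate standard error. It is the size of the log2 fold change divided by the square root of the F statistic of its test, not a standard error estimated by the model. A gene was called where the p-value of edgeR's two-sided quasi-likelihood F test, adjusted over all genes tested by Benjamini-Hochberg, was under 0.05. The dorsal library of female A stood apart from the other 5. Its summed dorsal pole markers were at 156 CPM against 281 to 384 in the others, its neocortex markers at 496 CPM against 218 to 277, and its oligodendrocyte markers at 5740 CPM against 7500 to 9410. The ventral library of female A also had the most neocortex marker signal of its region, 467 CPM against 282 to 367. Choroid plexus markers, genes of the tissue that makes cerebrospinal fluid beside the hippocampus, summed to 2570 CPM or more in 6 libraries (dorsal of males A and B and females B and C, ventral of females B and C) and to 344 CPM or less in the other 6.

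Of 19344 genes tested, 4811 (24.9%) were called, 2378 higher in the ventral hippocampus (12.3%) and 2433 lower (12.6%). Most differences were small, with a median size of 0.33 (log2) among called genes and 0.14 among all genes tested. A difference of 2-fold or more was measured for 290 genes that were higher and 204 that were lower. The direction was the same in all 6 animals for 3931 of the 4811 genes (81.7%). In 774 genes (4%) all 6 ventral libraries lay above all 6 dorsal ones, and in 595 (3.08%) all 6 lay below. Without the pairing by animal 3017 genes were called, and 3077 were called when choroid plexus signal entered as a covariate, of which 3002 and 2932 were among the 4811. Without female A, the fit called 5102 genes.

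**Figure D1:**
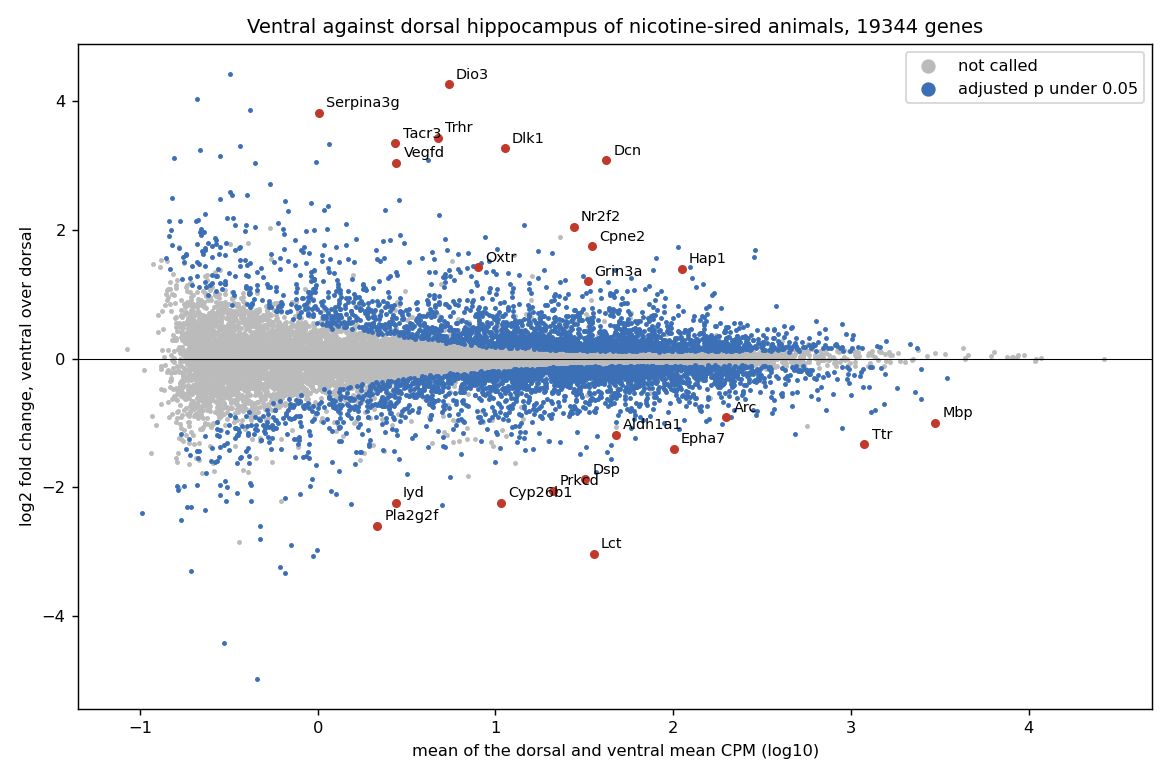
Each point is 1 of the 19344 genes tested, with the log10 of its mean level in CPM on the x axis and the log2 fold change of ventral over dorsal hippocampus on the y axis, blue where called and grey where not. Red points with symbols are a selection of the genes named in the text. Dio3 (4.26) is the highest of the red points and Lct (-3.03) the lowest, and Ttr (-1.33) is the red point that was not called. Larger differences than these, in unmarked points at the left, belong to genes with a mean under 1 CPM.

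The promoters of 4 genes near the ends of this range are shown first, because Dio3 and Dlk1 lie in 1 imprinted stretch of chromosome 12 and were both higher in the ventral hippocampus, while Lct and Cyp26b1 were lower. Each is the RefSeq sequence of build GRCm38.p6 on the strand of the gene, from 250 bases before the RefSeq start to 50 after it. For Dlk1 and Lct this start is also that of the GENCODE gene, whereas for Dio3 and Cyp26b1 it lies inside the GENCODE gene whose coordinates are given with the values, so distances are from the RefSeq start only. Capitals mark matches, on either strand, to the TATA box as spelled TATAAA, to the CAAT box as spelled CCAAT, and to the GC box as spelled GGGCGG. They also mark the retinoid and thyroid receptor half-site spelled AGGTCA, the E-box spelled CACGTG and the short cAMP response element spelled TGACG. In these 4 windows no match overlapped another, and a match is a description of letters only.
Dio3, chr12:110278980-110279279, plus strand: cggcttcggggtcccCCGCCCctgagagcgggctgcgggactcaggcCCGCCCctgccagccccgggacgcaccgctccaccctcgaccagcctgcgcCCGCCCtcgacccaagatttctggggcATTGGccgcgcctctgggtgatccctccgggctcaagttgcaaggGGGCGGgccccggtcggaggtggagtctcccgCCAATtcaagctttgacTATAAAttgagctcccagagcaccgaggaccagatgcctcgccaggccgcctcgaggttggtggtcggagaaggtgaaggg
Dlk1, chr12:109452573-109452872, plus strand: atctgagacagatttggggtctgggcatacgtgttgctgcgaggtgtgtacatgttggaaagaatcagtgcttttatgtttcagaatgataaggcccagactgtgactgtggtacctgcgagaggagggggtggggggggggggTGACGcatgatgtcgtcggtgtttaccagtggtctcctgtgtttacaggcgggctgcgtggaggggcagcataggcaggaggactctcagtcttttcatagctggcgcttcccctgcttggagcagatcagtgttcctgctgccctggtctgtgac
Lct, chr1:128328269-128328568, minus strand: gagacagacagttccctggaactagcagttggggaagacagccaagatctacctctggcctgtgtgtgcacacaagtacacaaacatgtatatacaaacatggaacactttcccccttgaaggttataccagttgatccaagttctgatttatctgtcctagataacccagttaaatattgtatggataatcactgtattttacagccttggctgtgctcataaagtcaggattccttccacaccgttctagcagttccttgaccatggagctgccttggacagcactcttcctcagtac
Cyp26b1, chr6:84593761-84594060, minus strand: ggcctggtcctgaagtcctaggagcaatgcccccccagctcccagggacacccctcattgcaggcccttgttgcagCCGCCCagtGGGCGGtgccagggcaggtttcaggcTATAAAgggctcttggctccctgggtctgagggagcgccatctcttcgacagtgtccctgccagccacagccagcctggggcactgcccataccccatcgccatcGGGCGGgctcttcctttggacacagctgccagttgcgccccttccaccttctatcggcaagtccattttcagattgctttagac
The Dio3 window held a TATA box 31 bases before the RefSeq start, 2 CCAAT boxes and 4 GC boxes, and 69% of its bases were G or C. The Dlk1 window held 1 TGACG and none of the other 5 motifs. The Cyp26b1 window held 1 TATA box, 139 bases before the RefSeq start, and 3 GC boxes. None of the 6 motifs was found in the Lct window, whose G and C content was 44.7%. Among 32851 mouse promoter windows of the same length, TATAAA was found in 13.6%, CCAAT in 37.4%, GGGCGG in 35.7%, AGGTCA in 16.3%, CACGTG in 7.15% and TGACG in 20.8%, and the median G and C content was 52.7%.

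Among called genes with a mean of at least 1 CPM, the same direction in all 6 animals and a symbol of their own, the largest increase in the ventral hippocampus was that of Dio3 (chr12:110279068-110281097, GRCm38), the deiodinase that inactivates thyroid hormone, an imprinted gene expressed mainly from the paternal copy. Dio3 ranged from 0.232 to 0.79 CPM (median 0.599) in the dorsal libraries and from 7.65 to 15.4 CPM (median 9.82) in the ventral ones. The groups did not overlap, and the log2 fold change was 4.26 ± 0.14 (adjusted p = 6.20e-10). Dlk1 (chr12:109452823-109463336), which encodes a Notch-related ligand and is imprinted in the same way, ranged from 0.695 to 4.03 CPM (median 1.85) in the dorsal libraries and from 15.5 to 29.1 CPM (median 19.4) in the ventral ones. Every ventral library was above every dorsal one, by 3.27 ± 0.23 (adjusted p = 8.57e-05), and female B had the highest level of both genes in both regions.

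Trhr, the receptor for thyrotropin-releasing hormone, ranged from 0.283 to 1.34 CPM (median 0.938) in the dorsal libraries and from 6.61 to 10.2 CPM (median 8.86) in the ventral ones. Its groups did not overlap (3.43 ± 0.22, adjusted p = 5.74e-06). Tacr3, the neurokinin B receptor, ranged from 0.0982 to 1.16 CPM (median 0.483) in the dorsal libraries and from 3.51 to 6.22 CPM (median 4.66) in the ventral ones. Dorsal levels of Tacr3 varied widely between animals, yet all were below the ventral ones (3.35 ± 0.35, adjusted p = 3.15e-04). Dcn, which encodes the small matrix proteoglycan decorin, ranged from 5.28 to 14.9 CPM (median 9.54) in the dorsal libraries and from 60.3 to 90.2 CPM (median 78.8) in the ventral ones. Its difference was 3.08 ± 0.21 (adjusted p = 2.06e-04), and female A, whose dorsal library stood apart in other genes, had the lowest dorsal level. Rxrg, a retinoid X receptor, was at 0.368 to 1.54 CPM (median 0.912) in dorsal and 6.16 to 8.68 CPM (median 7.58) in ventral libraries, again with no overlap (3.08 ± 0.25). The other genes with the largest increases were Serpina3g, a protease inhibitor (3.82 ± 0.26), Sec14l3, a lipid transfer protein (3.34 ± 0.26), Vgll3, a transcription cofactor (3.31 ± 0.37), Vegfd, a vascular growth factor (3.04 ± 0.18), Esyt3, an extended synaptotagmin (2.36 ± 0.30), and Dsc3, a desmosomal cadherin (2.31 ± 0.28). Dsc3 was the only one of these 12 whose groups overlapped. Serpina3g, Sec14l3, Vgll3, Vegfd, Esyt3 and Dsc3 all had mean dorsal levels under 1 CPM, Serpina3g at 0.13 and Sec14l3 at 0.20 CPM. So did Dio3 (0.54 CPM), Tacr3 (0.52 CPM), Trhr (0.83 CPM) and Rxrg (0.91 CPM). Fold changes from such levels rest on few counts.

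Among the same genes the largest decrease was that of Lct (chr1:128284756-128328318), which encodes lactase and is one of the dorsal pole markers used here. Lct ranged from 25.6 to 90.1 CPM (median 66.7) in the dorsal libraries and from 2.69 to 11.7 CPM (median 10.2) in the ventral ones. The lowest dorsal level was that of female A, the others lying at 53.03 CPM or more, and it still exceeded the highest ventral level (-3.03 ± 0.22, adjusted p = 2.79e-04). Iyd, the deiodinase that recovers iodide from iodotyrosines, ranged from 1.54 to 7.87 CPM (median 4.16) in the dorsal libraries and from 0.399 to 1.49 CPM (median 0.929) in the ventral ones, with the lowest dorsal level again in female A (-2.24 ± 0.20, adjusted p = 7.07e-06). Cyp26b1 (chr6:84571414-84593908), which degrades retinoic acid, was at 6.77 to 23.2 CPM (median 20.3) in dorsal and 3.1 to 3.99 CPM (median 3.65) in ventral libraries. Its difference was -2.24 ± 0.19 (adjusted p = 1.67e-04). Prkcd, a protein kinase C, ranged from 12.6 to 44.1 CPM (median 37.9) in the dorsal libraries and from 6.33 to 9.54 CPM (median 7.86) in the ventral ones and differed by -2.05 ± 0.21 (adjusted p = 9.88e-04). For both of these genes as well, female A had the lowest dorsal level. The same range of decreases held Pla2g2f, a secreted phospholipase (-2.60 ± 0.20), Mylk3, a myosin light chain kinase (-2.25 ± 0.30), Igfbpl1, a protein of immature neurons (-2.10 ± 0.41), Nhlh1, a neuronal helix-loop-helix factor (-2.06 ± 0.27), Dsp, desmoplakin (-1.87 ± 0.24), Cd109 (-1.84 ± 0.21) and Robo3, a guidance receptor (-1.79 ± 0.12). The groups overlapped for Igfbpl1 and Dsp and for no other of these 7. Mir682, a microRNA gene, was called at -1.76 ± 0.46 (adjusted p = 0.0463), but the libraries were made for messenger RNA and 8 of 13 alternative settings did not call it, so its value is uncertain.

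**Figure D2:**
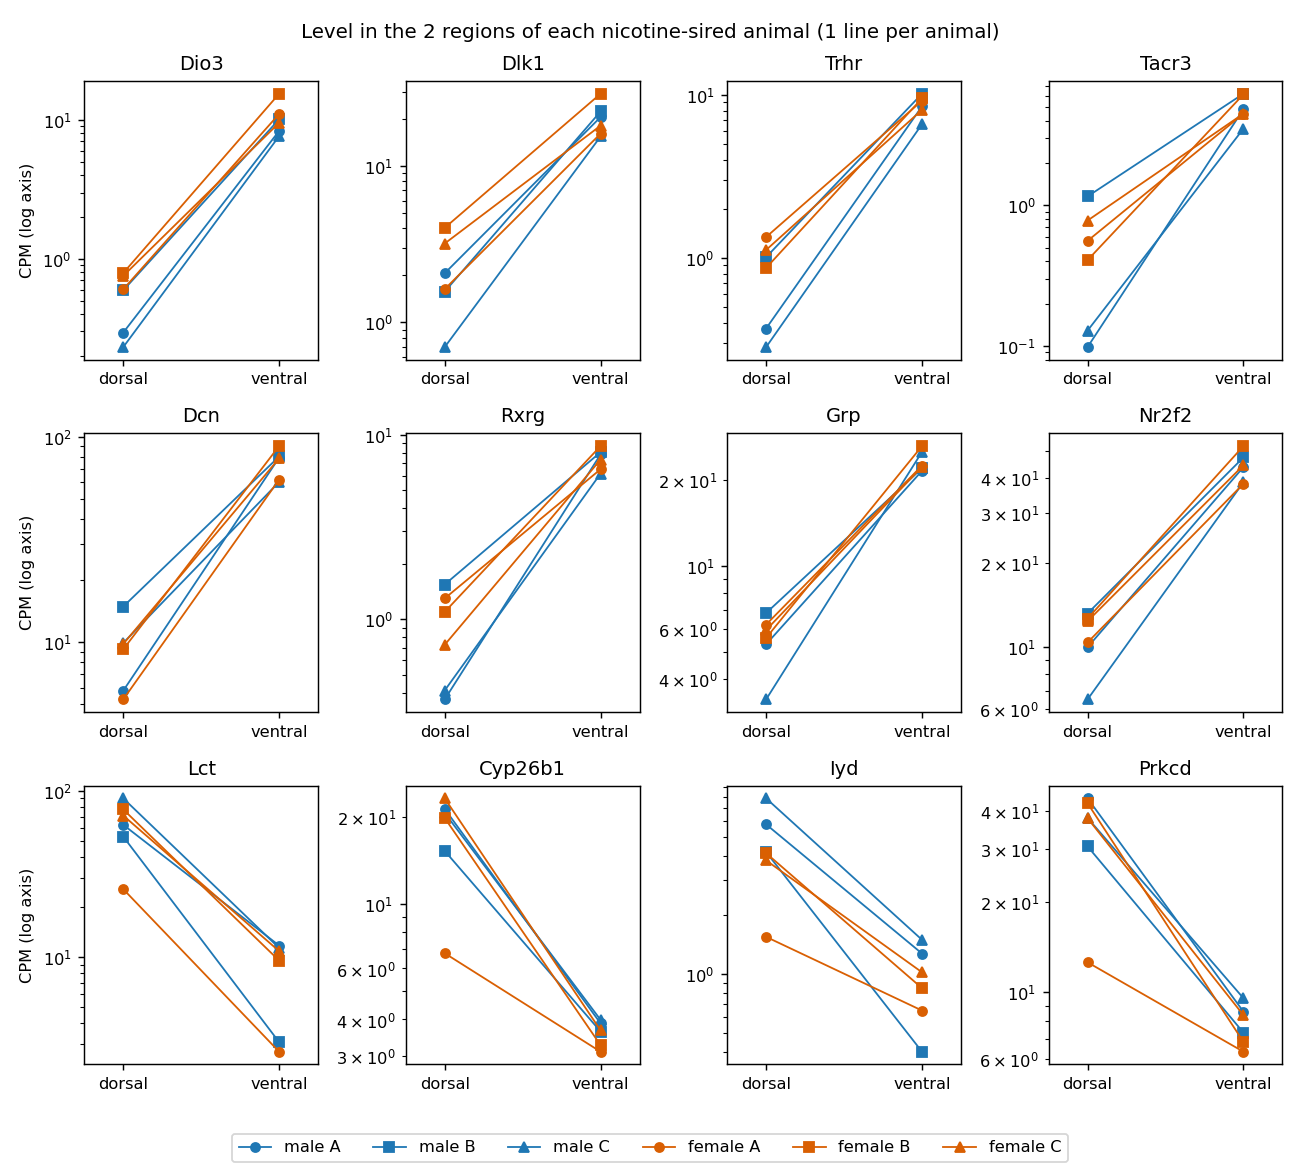
Levels of 12 genes in CPM on log axes, with 1 line joining the dorsal and the ventral library of each of the 6 nicotine-sired animals (males blue, females orange, symbols by letter). All lines rise for Dio3, Dlk1, Trhr, Tacr3, Dcn, Rxrg, Grp and Nr2f2 and all fall for Lct, Cyp26b1, Iyd and Prkcd, with the dorsal library of female A the lowest for the last 4.

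The smallest p-values belonged, besides Dio3, to genes with moderate differences. Hap1, which encodes a huntingtin-associated protein of vesicle transport, ranged from 56.2 to 68.7 CPM (median 61.4) in the dorsal libraries and from 145 to 175 CPM (median 163) in the ventral ones, a difference of 1.39 ± 0.044 (adjusted p = 6.20e-10). Cpne2, a calcium-binding copine, was at 12.8 to 19.6 CPM (median 15.9) in dorsal and 42 to 64.8 CPM (median 53.7) in ventral libraries (1.75 ± 0.058). Grin3a, the NMDA receptor subunit GluN3A, ranged from 17.1 to 23.7 CPM (median 19.7) in the dorsal libraries and from 41 to 53.8 CPM (median 45.1) in the ventral ones and differed by 1.21 ± 0.049 (adjusted p = 5.71e-09). Wdr6 was higher by 1.11 ± 0.041, with 383 bases of its exons opposite another coding gene, whose reads cannot be told apart where strand was not used in counting. Among decreases, Aldh1a1, an enzyme that makes retinoic acid, ranged from 56.4 to 73 CPM (median 66.3) in the dorsal libraries and from 26 to 38.4 CPM (median 27.8) in the ventral ones and differed by -1.18 ± 0.056 (adjusted p = 2.71e-08). Bcas1, a gene of the oligodendrocyte lineage, was at -1.02 ± 0.05, the formin Inf2 at -1.09 ± 0.055, Prr18 at -0.93 ± 0.051 and the transcription factor Cebpd at -1.27 ± 0.065. Cebpd has 562 exon bases opposite another coding gene.

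The labels of the libraries were set beside markers of position along the axis. These lists were chosen with earlier results of these data known, so the comparison is a description and no independent check. The counts of called members in these and all later lists are to be read beside the shares over all genes tested, 12.3% higher and 12.6% lower. Of 4 dorsal pole markers, 3 were lower in the ventral hippocampus and 0 higher, with a list median of -1.46 against -0.0081 over all genes tested. Wfs1, an endoplasmic reticulum protein, was not called: it ranged from 115 to 257 CPM (median 193) in the dorsal libraries and from 88.5 to 151 CPM (median 129) in the ventral ones, and the 2 regions overlapped (-0.62 ± 0.24, adjusted p = 0.14). Female A had the lowest dorsal Wfs1, and without that animal all 4 markers were called lower. All 6 ventral pole markers were higher, with a median of 1.64. Grp, gastrin-releasing peptide, ranged from 3.4 to 6.83 CPM (median 5.77) in the dorsal libraries and from 21.6 to 26.3 CPM (median 22.4) in the ventral ones (2.08 ± 0.14). Htr2c, a serotonin receptor also abundant in choroid plexus, ranged from 8.13 to 44.2 CPM (median 21.8) in the dorsal libraries and from 33.6 to 54.7 CPM (median 45.4) in the ventral ones, and its groups overlapped (1.21 ± 0.27, adjusted p = 0.0276). The call of Htr2c was lost under 6 of 13 alternatives, among them the choroid plexus covariate and the fits without male A, male B, female A or female C. Grp, Dcn, Trhr and Gpc3, a heparan sulfate proteoglycan (0.88 ± 0.11), were called under all 13.

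Markers of the hippocampal fields were unevenly represented. Of 10 markers of dentate granule cells, 9 were lower in the ventral libraries and 1, Calb1, was higher (0.21 ± 0.05), with a median of -0.79. Prox1, the transcription factor that specifies granule cells, was at 76.2 ± 22.3 CPM in dorsal and 43.8 ± 14.3 CPM in ventral libraries (mean and SD, n = 6), a difference of -0.81 ± 0.15 (adjusted p = 0.0107). Dsp ranged from 20.5 to 71.7 CPM (median 47.7) in the dorsal libraries and from 4.39 to 20.8 CPM (median 18.1) in the ventral ones, its groups overlapping only through the dorsal library of female A at 20.5 CPM. Of the 10 calls, 5 held under all 13 alternatives, and 5 were lost without the pairing by animal. Of 8 CA2 markers, 4 were lower and Necab2, a calcium-binding protein, was higher (0.81 ± 0.062). Avpr1b, a vasopressin receptor typical of CA2, was at 0.112 to 1.55 CPM (median 0.704) in dorsal and 0 to 0.278 CPM (median 0.152) in ventral libraries (-2.60 ± 0.42). Rgs14, a CA2 regulator of G protein signalling, was at 122 ± 38.1 CPM in dorsal and 66.5 ± 11 CPM in ventral libraries (mean and SD, n = 6, -0.82 ± 0.14). CA1 markers moved in both directions, 2 higher and 2 lower of 5, with Mpped1 at 0.45 ± 0.055 and Pou3f1 at -0.87 ± 0.092. So did CA3 markers, 3 higher and 2 lower of 6, with Slc9a4 at 0.82 ± 0.094 and Bok at -0.81 ± 0.077. Of 6 subiculum and retrohippocampal markers, 3 were higher and 0 lower: Tshz2 (0.87 ± 0.19), Fn1 (0.29 ± 0.075) and Ntng2 (0.36 ± 0.054). With the choroid plexus covariate 1 of these 3 was called, and Tshz2 lost its call under 5 and Fn1 under 4 of 13 alternatives.

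Transcription factors that pattern the cortex changed in both directions, 9 higher and 7 lower of 28 (median 0.14). Nr2f2, the nuclear receptor COUP-TFII, ranged from 6.51 to 13.2 CPM (median 11.4) in the dorsal libraries and from 38.3 to 52.2 CPM (median 44.2) in the ventral ones, the largest difference of the list (2.05 ± 0.087, adjusted p = 1.19e-07). Its relative Nr2f1, COUP-TFI, was higher by 0.42 ± 0.044. Fezf2 (0.58 ± 0.065) and Nr4a2 (0.65 ± 0.085), factors of deep-layer projection neurons, were higher, while Bcl11b (-0.58 ± 0.048), Zbtb20 (-0.56 ± 0.086) and Nr3c2, the mineralocorticoid receptor (-0.59 ± 0.07), were lower. The calls of Nr2f1, Nr2f2, Fezf2, Nr4a2 and Bcl11b held under all 13 alternatives, and 10 of the 16 calls in the list were lost without the pairing by animal.

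Of 18 genes of retinoic acid signalling, 7 were higher and 5 lower. Retinoic acid is made from retinaldehyde by Aldh1a enzymes, degraded by Cyp26 enzymes and sensed by pairs of RAR and RXR receptors. Both directions occurred at each of these steps. Of the synthetic enzymes, Aldh1a1 was lower (-1.18 ± 0.056), Aldh1a3 was higher at a low level of 0.83 ± 0.33 CPM dorsally and 1.38 ± 0.311 CPM ventrally (mean and SD, n = 6, 0.77 ± 0.23), and Aldh1a2 was not called (0.12 ± 0.17). Of the degrading enzymes, Cyp26b1 was lower (-2.24 ± 0.19) and Cyp26a1 higher (3.04 ± 0.32), the latter at levels of only 0.0297 to 0.229 CPM (median 0.0751) in dorsal and 0.404 to 1.21 CPM (median 0.759) in ventral libraries. Among the receptors, Rara ranged from 16.8 to 28.1 CPM (median 19.7) in the dorsal libraries and from 10.2 to 14.4 CPM (median 11.3) in the ventral ones and was lower (-0.86 ± 0.06), as was Rxrb (-0.20 ± 0.043). Rxra (0.63 ± 0.059) and Rxrg (3.08 ± 0.25) were higher, and so was Rarb (0.35 ± 0.10), with 1793 exon bases opposite another coding gene. Rarg was not called (0.20 ± 0.073). The calls held under all 13 alternatives for 9 of the 12 genes, Aldh1a3, Crabp1 and Rarb being the exceptions.

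The Wnt pathway, a family of secreted signals with their receptors and inhibitors, had 10 of 32 genes higher and 5 lower (median 0.12). Among ligands and their enhancers, Rspo2, an R-spondin that amplifies Wnt signals, ranged from 7.23 to 12.6 CPM (median 10.8) in the dorsal libraries and from 20 to 32.7 CPM (median 27.2) in the ventral ones (1.37 ± 0.086, adjusted p = 6.48e-07). Wnt7b was at 29.8 to 37.9 CPM (median 32.5) in dorsal and 47.9 to 60 CPM (median 55.6) in ventral libraries (0.75 ± 0.049). Wnt4 (1.18 ± 0.13), Wnt5a (0.81 ± 0.072), Wnt7a (0.59 ± 0.064) and Rspo3 (0.87 ± 0.095) were also higher. In the other direction, Wnt2 ranged from 5.12 to 8.96 CPM (median 6.18) in the dorsal libraries and from 2.32 to 3.53 CPM (median 3.08) in the ventral ones (-1.13 ± 0.16), and Wnt8b (-2.35 ± 0.52) and Wnt10a (-0.44 ± 0.13) were lower too, Wnt8b at under 1 CPM. Of the secreted inhibitors, Frzb (0.48 ± 0.061) and Sfrp2 (0.83 ± 0.18) were higher and Dkk3 (-0.27 ± 0.046) lower. Among receptors Fzd1 was called (0.43 ± 0.085), and among intracellular inhibitors Nkd2 was higher (1.31 ± 0.12) and Nkd1 lower (-0.23 ± 0.078). Axin2, a common target of the pathway, was not called (0.05 ± 0.073, adjusted p = 0.667), nor was Lef1, its nuclear effector (0.26 ± 0.10). The calls of 13 of the 15 genes held under all 13 alternatives, Wnt10a and Nkd1 being the exceptions.

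Axon guidance genes were called in almost equal numbers, 13 higher and 12 lower of 45 (median -0.0042). Of 9 Eph receptors called, 7 were lower. Epha7, a receptor for ephrin-A ligands, had the largest of these decreases and ranged from 72.6 to 192 CPM (median 152) in the dorsal libraries and from 39.1 to 68.2 CPM (median 56.5) in the ventral ones, with no overlap (-1.40 ± 0.11, adjusted p = 7.62e-05). Epha6 (-0.80 ± 0.10), Ephb1 (-0.64 ± 0.05), Epha4 (-0.63 ± 0.077), Epha5 (-0.49 ± 0.06), Ephb2 (-0.41 ± 0.061) and Epha3 (-0.32 ± 0.099) were also lower. Epha8 (0.74 ± 0.17) and Ephb6 (0.28 ± 0.066) were higher. Of their ligands none was called lower, and Efnb2, ephrin-B2, ranged from 16.5 to 31.6 CPM (median 21.5) in the dorsal libraries and from 39 to 49.9 CPM (median 47.1) in the ventral ones (1.05 ± 0.075). Efna5 (1.18 ± 0.31), Efnb1 (0.44 ± 0.059) and Efna3 (0.18 ± 0.044) were higher as well. Among other receptors and ligands, Plxnc1 (1.02 ± 0.055), Plxnd1 (0.79 ± 0.16), Unc5d (0.81 ± 0.20) and the ligand Slit2 (0.77 ± 0.12) were higher, and Robo3 (-1.79 ± 0.12), Unc5b (-0.64 ± 0.073) and Robo2 (-0.18 ± 0.056) lower. Of the 25 calls in this list, 15 held under all 13 alternatives. Efna5 lost its call under 8, Epha3 under 6, and Unc5d and Robo2 under 5 each. Of 13 classical cadherins, adhesion proteins of neuronal membranes, 4 were higher and 1 lower, Cdh13 ranging from 25.2 to 39.6 CPM (median 37.5) in the dorsal libraries and from 55.1 to 80.4 CPM (median 67.1) in the ventral ones (0.94 ± 0.052), with Cdh4 at 0.79 ± 0.079 and Cdh8 at -0.43 ± 0.056. Without female A the cadherin counts were 7 higher and 1 lower.

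Of 31 neuropeptide and stress hormone receptors tested, 15 were called higher and 0 lower, with a median of 0.34. Over all genes tested 12.3% were called higher and 12.6% lower. The counts were 13 higher and 1 lower without male A, and 18 higher and 1 lower without female A. The list leaves out Avpr1b and Nr3c2, the mineralocorticoid receptor, both called lower and counted in other lists above. Oxtr, the oxytocin receptor, ranged from 3.51 to 5.25 CPM (median 4.5) in the dorsal libraries and from 10.2 to 13.4 CPM (median 11.5) in the ventral ones (1.42 ± 0.089, adjusted p = 1.84e-07). Oprk1, the kappa opioid receptor, was at 0.154 to 0.961 CPM (median 0.339) in dorsal and 1.11 to 4.68 CPM (median 1.24) in ventral libraries (2.01 ± 0.23), and its ventral level in female A was far above the other 5. Sstr1, a somatostatin receptor, ranged from 2.9 to 6.71 CPM (median 3.58) in the dorsal libraries and from 6.94 to 13.1 CPM (median 11.5) in the ventral ones, with its highest dorsal level in female A (1.44 ± 0.17). Galr1, for galanin (1.85 ± 0.33), Oprm1, the mu opioid receptor (1.72 ± 0.32), Nmbr, for neuromedin B (1.21 ± 0.18), Tacr1, for substance P (1.01 ± 0.15), Ntsr1, for neurotensin (0.90 ± 0.10), and Oprl1, for nociceptin (0.65 ± 0.047), were higher too, Galr1 and Oprm1 at mean levels under 1 CPM. Of stress receptors, Crhr1, for corticotropin-releasing hormone, was called at 0.25 ± 0.086 (adjusted p = 0.0461) and lost its call under 9 of 13 alternatives, while Nr3c1, the glucocorticoid receptor, was not (-0.11 ± 0.045, adjusted p = 0.109). Calls held under all 13 alternatives for 11 of the 15 receptors.

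The peptides themselves moved in both directions, 6 higher and 4 lower of 18 tested. Trh, the ligand of Trhr, was higher at 1.28 ± 0.36, a call lost under 4 of 13 alternatives. Tac2, the precursor of the Tacr3 ligand, was higher at 0.54 ± 0.13, and Tac1, the precursor of the Tacr1 ligand, at 0.59 ± 0.087. In contrast Pdyn, the precursor of the dynorphins that bind Oprk1, was lower, at 15.7 ± 4.07 CPM dorsally and 9.25 ± 3.32 CPM ventrally (mean and SD, n = 6, -0.77 ± 0.13, adjusted p = 0.00263). Penk, the enkephalin precursor, was lower by a similar log2 value (-0.80 ± 0.12), as were Npy (-0.49 ± 0.053) and Cck (-0.36 ± 0.071). Vip (0.63 ± 0.11) and Calca (1.14 ± 0.19) were higher. Crh was not called (0.45 ± 0.16, adjusted p = 0.0619).

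Among receptors for amine transmitters, 4 of 12 serotonin receptors tested were higher and 0 lower, and 3 of 11 dopamine and adrenergic receptors were higher and 1 lower. The shares over all genes tested were 12.3% higher and 12.6% lower. Adra2a, an alpha-2 adrenergic receptor, ranged from 6.39 to 11.3 CPM (median 7.8) in the dorsal libraries and from 14.7 to 22 CPM (median 16.8) in the ventral ones (1.10 ± 0.062, adjusted p = 7.92e-08). Drd5, a dopamine receptor, ranged from 7.76 to 19.9 CPM (median 17.4) in the dorsal libraries and from 5.66 to 16.2 CPM (median 10.2) in the ventral ones and was lower (-0.66 ± 0.098), its groups overlapping. Besides Htr2c, the serotonin receptors Htr7 (0.70 ± 0.11), Htr3a (0.68 ± 0.071) and Htr5a (0.56 ± 0.11) were higher. Htr1a was not called (0.21 ± 0.09, adjusted p = 0.12).

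Cholinergic receptors were examined because the sires were given nicotine, the agonist of the nicotinic acetylcholine receptor. Of 11 nicotinic subunits tested, 3 were higher in the ventral hippocampus and 1 lower. Over all genes tested the shares were 12.3% higher and 12.6% lower. The region difference was called as differing between nicotine-sired and saline-sired animals for 0 of these subunits. It was called so for 0 of all 19849 genes in that comparison, so the count is not particular to the subunits. Chrna4, the alpha-4 subunit of the high-affinity receptor, ranged from 12.5 to 26.2 CPM (median 18.8) in the dorsal libraries and from 20.2 to 36.4 CPM (median 30.8) in the ventral ones and was higher in all 6 animals (0.67 ± 0.057, adjusted p = 2.25e-06). Chrna7, which forms the alpha-7 receptor, ranged from 6.55 to 11.8 CPM (median 9.16) in the dorsal libraries and from 8.8 to 17.4 CPM (median 13.6) in the ventral ones (0.46 ± 0.088, adjusted p = 0.00174). Chrnb2, the partner of Chrna4, was higher by 0.20 ± 0.04, with 1365 exon bases opposite another coding gene, and Chrna5 was lower (-0.50 ± 0.16, adjusted p = 0.0442). The calls of Chrna4 and Chrnb2 held under all 13 alternatives, those of Chrna7 and Chrna5 did not. Of 8 muscarinic and acetylcholine turnover genes tested, Chrm4 (0.55 ± 0.072) and Chrm5 (1.11 ± 0.18) were higher and Chrm1 (-0.30 ± 0.047) and Chrm3 (-0.70 ± 0.083) lower, and these 4 calls held under all 13. Ache, acetylcholinesterase, was not called (0.049 ± 0.052).

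Ionotropic glutamate receptors, the main excitatory receptors, had 7 of 16 tested subunits higher and 3 lower. The lower ones were Grin2a (-0.51 ± 0.048), Grin1 (-0.26 ± 0.04) and Gria1 (-0.26 ± 0.06). Besides Grin3a, the NMDA subunit Grin2d (0.41 ± 0.061), the AMPA subunit Gria4 (0.58 ± 0.087) and the kainate subunits Grik1 (0.79 ± 0.084) and Grik3 (0.79 ± 0.12) were higher. Of 14 GABA-A receptor subunits tested, 6 were higher and 4 lower. Gabra3 ranged from 35.4 to 116 CPM (median 48) in the dorsal libraries and from 97.1 to 146 CPM (median 105) in the ventral ones, the dorsal level of female A being inside the ventral range (1.04 ± 0.15, adjusted p = 0.00339). Gabrq (2.01 ± 0.25) and Gabrg1 (0.55 ± 0.059) were higher too, and Gabrd (-0.44 ± 0.074) and Gabra5 (-0.28 ± 0.067), subunits of receptors outside synapses, were lower. Potassium and HCN channel genes, which set excitability, were called in 32 of 54 cases, 15 higher and 17 lower (median 0.019). Kcnf1 ranged from 38.5 to 99.6 CPM (median 51) in the dorsal libraries and from 73.5 to 134 CPM (median 98.1) in the ventral ones, the highest dorsal level again in female A (0.91 ± 0.09). The related channels Kcnd3 (0.66 ± 0.069) and Kcnd2 (-0.56 ± 0.05) differed in direction, and 24 of the 32 calls held under all 13 alternatives.

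**Figure D3:**
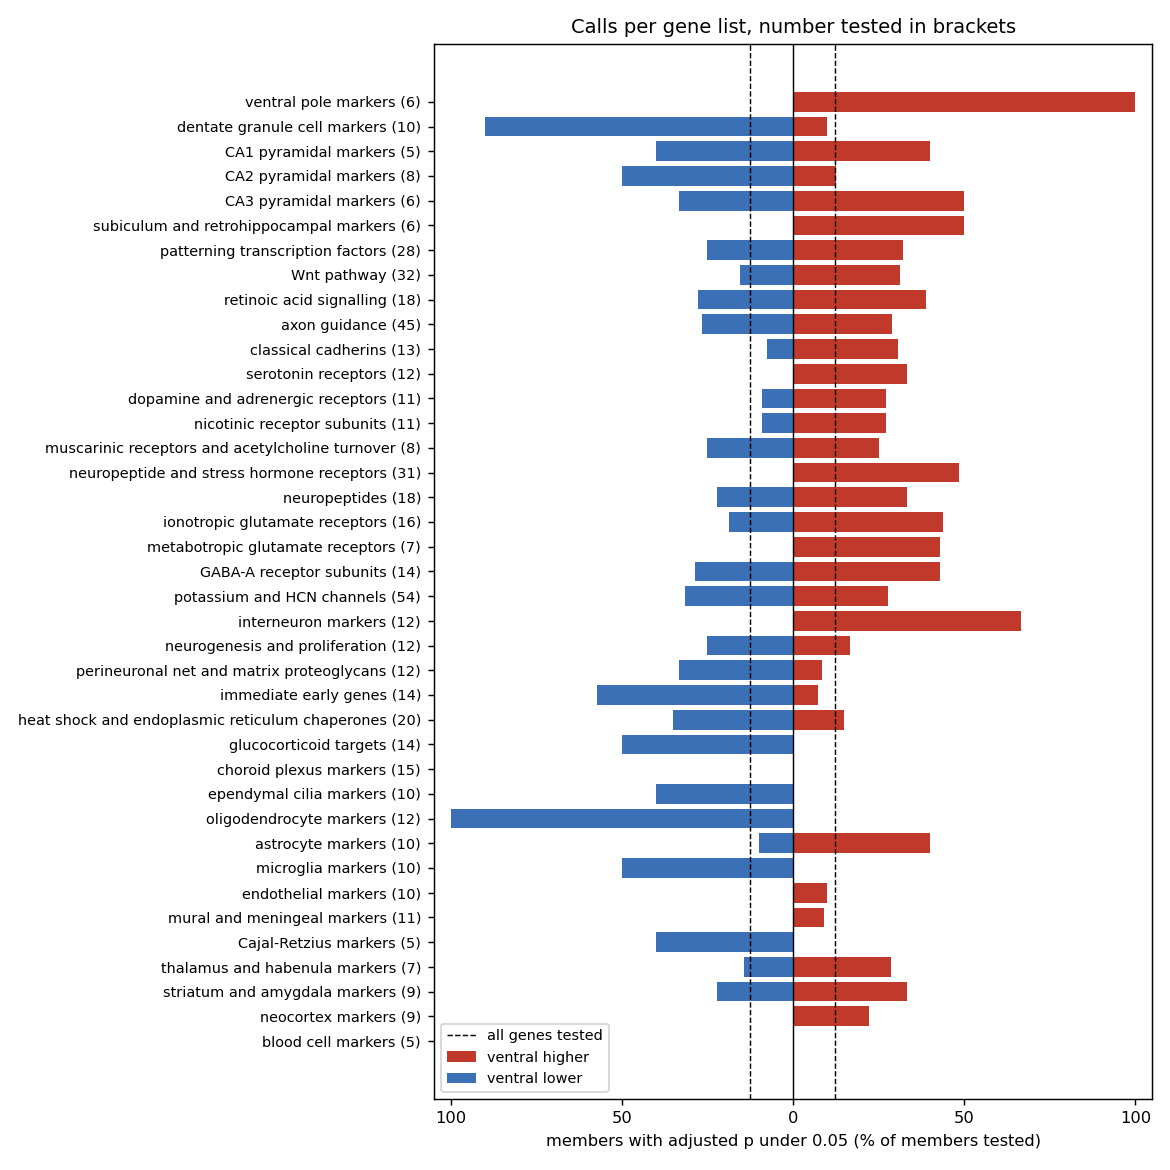
For each gene list with 5 or more members tested, bars give the share of members called higher (red, to the right) and lower (blue, to the left) in the ventral hippocampus, in percent of members tested. Dashed lines mark the shares over all genes tested, 12.3% higher and 12.6% lower. Oligodendrocyte markers (12 of 12) and dentate granule cell markers (9 of 10) reach farthest to the left, ventral pole (6 of 6) and interneuron markers (8 of 12) farthest to the right.

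Interneuron markers, genes of GABA-releasing cells, were higher in 8 of 12 cases and lower in 0 (median 0.38). Npy and Cck, which were lower, and Vip and Sst, which were higher, are counted among the neuropeptides and not here. Calb2, calretinin, ranged from 9.21 to 25.9 CPM (median 20.1) in the dorsal libraries and from 36.1 to 50.9 CPM (median 42.8) in the ventral ones (1.28 ± 0.23, adjusted p = 0.0115). Kit (1.13 ± 0.12), Reln (0.73 ± 0.11), Nos1 (0.72 ± 0.052), Erbb4 (0.68 ± 0.076) and Lhx6 (0.48 ± 0.073) were higher, and so were the GABA-synthesis genes Gad2 (0.29 ± 0.05) and Gad1 (0.20 ± 0.064). Gad1 lost its call under 7 of 13 alternatives. Pvalb, parvalbumin, was not called (-0.23 ± 0.18, adjusted p = 0.411). The summed list ranged from 571 to 800 CPM in dorsal and from 870 to 1080 CPM in ventral libraries, with no overlap. Of 12 genes of neurogenesis, 3 were lower and 2 higher. Eomes, a factor of intermediate progenitors, was at 0.134 to 1.68 CPM (median 0.703) in dorsal and 0 to 0.252 CPM (median 0.117) in ventral libraries (-2.81 ± 0.45), while Dcx, doublecortin of young neurons, was at 4.48 to 8.05 CPM (median 6.05) and 7.8 to 12 CPM (median 9.36) (0.65 ± 0.093). Mki67, a marker of dividing cells, was not called (-0.42 ± 0.21).

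Immediate early genes, transcribed within minutes of neuronal activity, were lower in 8 of 14 cases and higher in 1 (median -0.33). Arc, a regulator of synapses, ranged from 130 to 345 CPM (median 274) in the dorsal libraries and from 67.6 to 228 CPM (median 148) in the ventral ones, and both the lowest dorsal and the lowest ventral level were those of female B (-0.91 ± 0.12, adjusted p = 0.00224). Nr4a1, an orphan nuclear receptor, ranged from 56 to 103 CPM (median 98.2) in the dorsal libraries and from 31.5 to 79.3 CPM (median 54.6) in the ventral ones (-0.72 ± 0.086). Egr1 (-0.79 ± 0.15), Egr4 (-0.67 ± 0.16) and Egr3 (-0.59 ± 0.13) were lower, Fosl2 was higher (0.56 ± 0.092), and Fos was not called (-0.19 ± 0.087, adjusted p = 0.14). Without the pairing by animal 5 of the 9 calls were lost, Egr4 lost its call under 6 of 13 alternatives, and those of Fosl2 and Nr4a1 held under all 13 alternatives. Of 14 glucocorticoid targets, genes induced by stress hormone, 7 were lower and 0 higher, led by Sgk1 (-0.46 ± 0.056), Klf9 (-0.37 ± 0.052) and Errfi1 (-0.34 ± 0.042), with Fkbp5 not called (-0.12 ± 0.047). Without female A the counts were 7 lower and 1 higher. Chaperones of the cytosol and endoplasmic reticulum had 3 of 20 higher and 7 lower (median -0.071), and with the choroid plexus covariate 1 higher and 4 lower. Of 12 genes of the perineuronal net and brain matrix, Acan (-0.82 ± 0.093), Hapln2 (-0.86 ± 0.065), Has3 (with 352 exon bases opposite another coding gene) and Hapln4 were lower and Tnc was higher (0.66 ± 0.11). Hapln4 lost its call under 8 of 13 alternatives.

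Of the markers of oligodendrocytes, the cells that make myelin, all 12 were lower in the ventral hippocampus (median -0.94), and the calls of all 12 held under all 13 alternatives. Mbp, myelin basic protein, ranged from 2930 to 4610 CPM (median 4160) in the dorsal libraries and from 1720 to 2150 CPM (median 2020) in the ventral ones (-1.0 ± 0.058, adjusted p = 1.17e-07). The summed markers ranged from 5740 to 9410 CPM in dorsal and from 3700 to 4240 CPM in ventral libraries. Mobp (-1.07 ± 0.072) and Mog (-0.98 ± 0.057) were also lower in all 6 animals. Microglia markers were lower in 5 of 10 cases, C1qa at -0.27 ± 0.051, but Cx3cr1 was not called (-0.031 ± 0.046), and none of the 5 calls held under all 13. Of 10 astrocyte markers, 4 were higher, led by Fgfr3 (0.36 ± 0.062), and Gfap was lower (-0.37 ± 0.081). Endothelial markers were called in 1 of 10 cases, mural and meningeal markers in 1 of 11 and blood markers in 0 of 5, against 24.9% of all genes tested.

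Tissue next to the hippocampus was represented unevenly between libraries. Of 15 choroid plexus markers, 0 were called by edgeR's robust test, and 0 had an unadjusted p under 0.05, with a median of -1.25. The non-robust fit called 5 lower and DESeq2's Wald test 3 lower. The choroid plexus covariate was the mean log2 level of these same 15 markers, so the fit with it removes their shared difference and cannot test them. It called 1 higher and 2 lower. Ttr, transthyretin, a main product of that tissue, ranged from 34.7 to 5190 CPM (median 1650) in the dorsal libraries and from 70.9 to 1770 CPM (median 123) in the ventral ones (-1.33 ± 1.10, adjusted p = 0.454). Of 10 ependymal markers 4 were lower, and 1 of 10 with the choroid plexus covariate. Of 9 neocortex markers 2 were higher, Tshz2 and Fezf2, which also stand in lists above, and 6 of 9 were higher without female A. Of 5 Cajal-Retzius markers tested 2 were lower, Ebf3 (-1.28 ± 0.30) and Trp73 (-0.94 ± 0.28), and 0 with the choroid plexus covariate. DESeq2's Wald test called 2 of the 5 higher and 2 lower, the fit without female B called 1 higher and 1 lower, and Trp73 lost its call under 7 of 13 alternatives. Thalamic and habenular markers had 2 of 7 tested higher and 1 lower, Prkcd, and those of striatum and amygdala 3 of 9 higher and 2 lower. The part of these neighbouring tissues in the other differences was not tested beyond the covariate and the fits without 1 animal.

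**Figure D4:**
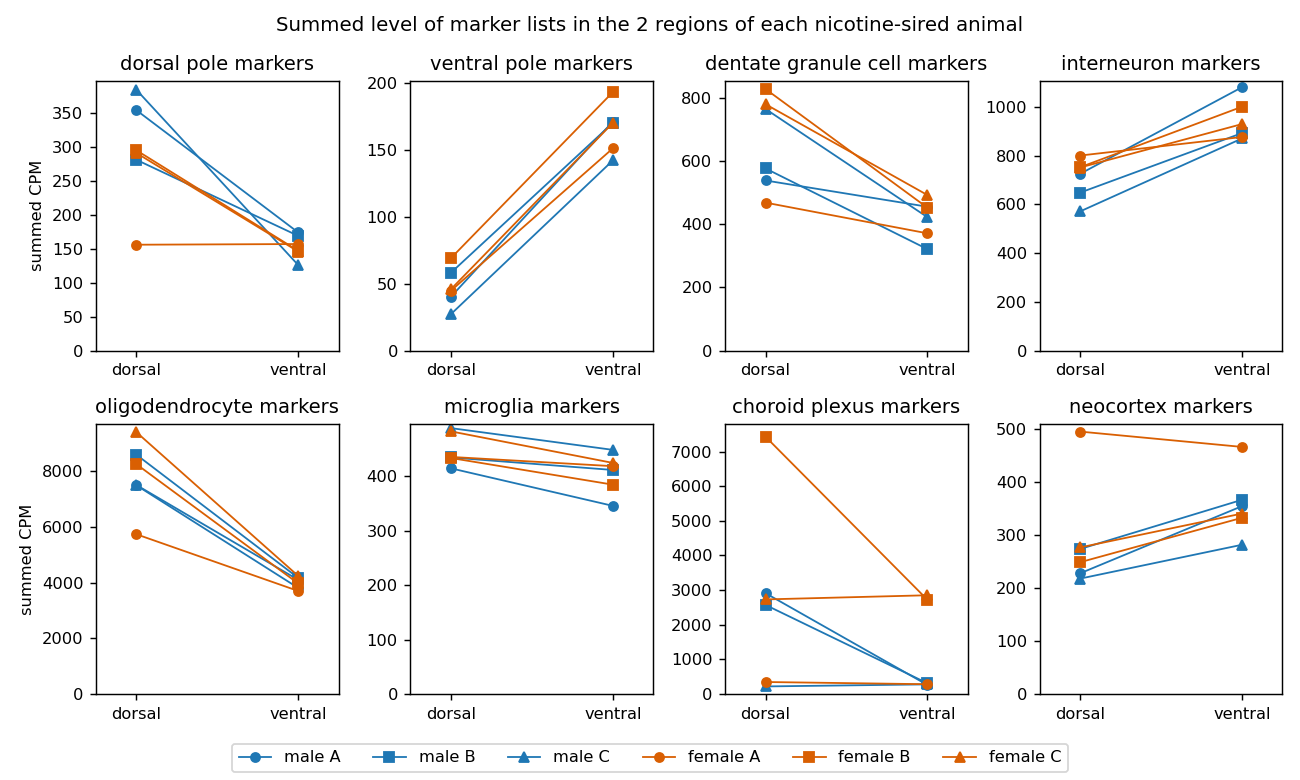
Summed levels of 8 marker lists in CPM, with 1 line joining the dorsal and the ventral library of each of the 6 animals (males blue, females orange). Oligodendrocyte sums fall in all 6 animals and interneuron and ventral pole sums rise in all 6, choroid plexus sums reach 7430 CPM in the dorsal library of female B, and the dorsal library of female A has the lowest dorsal pole sum (156 CPM) and the highest neocortex sum (496 CPM).

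The region difference was then estimated in each sex from a fit with separate terms. In males 3047 genes (15.8%) were called and in females 2040 (10.5%). With 3 animals each these counts changed with single animals: without male A 1778 genes were called in males, without male C 1939, without female B 905 in females and without female C 830. The difference between the sexes was itself called for 1 of 19344 genes (0.00517%), with 825 at an unadjusted p under 0.05, and DESeq2's Wald test also called 1. That gene was Ccl21b, a chemokine gene on the unplaced scaffold GL456350.1 of GRCm38. It was higher ventrally in males (1.46 ± 0.18) and lower in females (-0.98 ± 0.18), a difference of -2.44 ± 0.26 (female minus male, adjusted p = 0.00803). In males A, B and C it went from 1.52, 1.75 and 3.01 CPM dorsally to 4.90, 6.39 and 5.65 CPM ventrally. In females A, B and C it went from 9.99, 4.71 and 2.34 CPM dorsally to 5.42, 2.56 and 0.931 CPM ventrally, so that the dorsal and ventral libraries overlapped among the females. Ccl21b has near-identical copies in the mouse genome, and 2 further gene IDs with the same symbol were tested and not called (adjusted p = 0.995 for both), so its reads may be split among them. The call was lost without male A, without male B and without the pairing by animal.

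Next in order of p among genes with a symbol of their own, and not called, were Grm8, Sorcs1, Cabp7 and Htr1a. Grm8, a metabotropic glutamate receptor, was higher by 1.40 ± 0.12 in males and by 0.48 ± 0.11 in females (adjusted p of the difference = 0.604). Sorcs1, a sorting receptor, was at 0.48 ± 0.11 in males and -0.25 ± 0.10 in females, and Htr1a at -0.015 ± 0.071 and 0.45 ± 0.072 (adjusted p = 0.995 for both). Cabp7, a calcium-binding protein with 338 exon bases opposite another coding gene, was at -0.81 ± 0.07 and -0.33 ± 0.07 (adjusted p = 0.995). The leading genes were chosen for the same direction in every animal. Their shared direction in males and females was therefore set by that rule, and only the sizes are described. Dio3 was at 4.57 ± 0.20 in males and 4.05 ± 0.17 in females, and Trhr at 4.0 ± 0.23 and 3.01 ± 0.20. Lct was at -3.09 ± 0.34 and -2.96 ± 0.35, and Cyp26b1 at -2.30 ± 0.29 and -2.17 ± 0.31.

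Finally, the region difference of nicotine-sired animals was set against that of the 6 saline-sired animals in a fit of all 24 libraries (19849 genes). Within that fit 4631 genes were called in the nicotine-sired and 4426 in the saline-sired animals. The difference between the treatments was called for 0 genes (0%), with 1844 at an unadjusted p under 0.05, and DESeq2's Wald test called 0. Genes with a symbol of their own that were also tested in the 12 libraries were ranked by p. The first 5 were Cdc42ep1, Arhgef19, Ireb2, Arl2 and Gabpa, with an adjusted p of 0.486 each. Gabpa has 397 exon bases opposite another coding gene. Cdc42ep1, an effector of the GTPase Cdc42, was at 19.2 to 31.9 CPM (median 24.9) in dorsal and 13.8 to 20.3 CPM (median 17.2) in ventral nicotine-sired libraries, and its log2 fold change was -0.53 in nicotine-sired and -0.16 in saline-sired animals. Ireb2, an iron-response regulator, was at 0.14 in nicotine-sired and -0.14 in saline-sired animals.

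The dorsal libraries of saline-sired male C and saline-sired female C stood apart. Dio3 was at 4.85 and 5.32 CPM in these 2 against 0.497 to 0.657 CPM in the other 4 saline-sired dorsal libraries, and Dcn at 41.7 and 37 CPM against 6.23 to 8.42 CPM. Trhr was likewise at 5.53 and 3.54 CPM against 0.612 to 1.2 CPM. For 32 of the 33 leading genes named above the difference was smaller in size in the saline-sired animals, Dio3 with 2.88 ± 0.53 and Lct with -2.29 ± 0.37. Without those 2 animals it was smaller for 19 of the 33, with Dio3 at 4.35 ± 0.18 and Lct at -2.91 ± 0.30. These genes were chosen in the nicotine-sired libraries, and the 2 animals were left out after their dorsal levels of some of these genes were seen. The counts are therefore a description and no test. Nicotine-sired female A, whose dorsal library also stood apart, was kept in both versions. In that smaller comparison of 6 with 4 animals 1 gene was called, the haemoglobin gene Hbb-bh3, with 937 at an unadjusted p under 0.05. Nhlh1 kept a smaller difference in saline-sired animals in both versions, -0.91 ± 0.26 with 6 and -1.18 ± 0.31 with 4 animals, against -2.06 in nicotine-sired ones, and it was not called (adjusted p = 0.486 and 0.94).

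**Figure D5:**
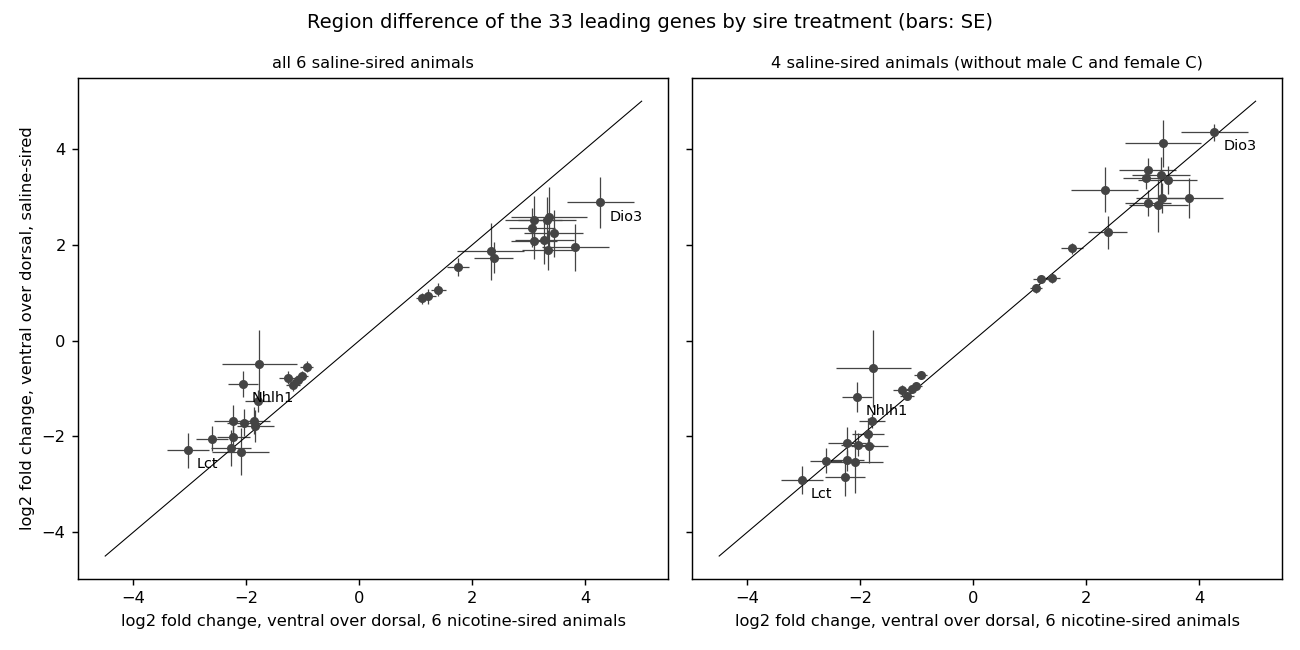
Log2 fold changes of ventral over dorsal hippocampus for 33 leading genes, nicotine-sired animals on the x axis and saline-sired animals on the y axis. Bars are the approximate standard errors derived from the F statistic, and the line marks equal values. With all 6 saline-sired animals (left) 32 genes lie nearer to 0 on the y axis than on the x axis, and without saline-sired male C and female C (right) 19 do.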

How the data were processed

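RNA was taken from frozen dorsal and ventral hippocampus, made into stranded mRNA libraries and sequenced as single-end reads, per the labels' protocols. The authors deposited raw read counts for 51912 Ensembl genes, 1 column per library. Builds mm10 and GRCm38 are listed, per the submitters' processing notes, together with Cuffdiff 2.2.1.3, TopHat2 2.1.0 and Cufflinks, without their roles. How reads were counted, with or without strand, and on which gene models is not given in the sources used here. Coordinates, biotypes and exons opposite another coding gene came from GENCODE M21 (GRCm38), in which 193 of the IDs were not found.

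Counts were tested with edgeR 4.0.16 (R 4.3.3, limma 3.58.1): filterByExpr, TMM, and glmQLFTest on a robust fit (two-sided) with 1 term per animal, adjusted by Benjamini-Hochberg at 0.05. One fit gave the region difference, a second that of each sex and their difference, and the last, over all 24 libraries, that of each sire treatment and their difference. Totals of 33914755 counts or more per library gave a common biological coefficient of variation of 0.088 in the first fit and 0.10 in the last. The 2 libraries of an animal deviated together from their group means (log2 of CPM plus 0.5), with a correlation across genes of 0.213 to 0.665 in the 6 pairs. Libraries of different animals were not compared in this way, so the pairing rests on the titles. No library was left out. The procedure was checked on simulated counts. Alternatives were DESeq2 1.42.0, RLE scaling, no filter, a non-robust fit, no pairing, a choroid plexus covariate, the spread of all libraries and leaving out each animal, 13 for the region difference. Figures used matplotlib 3.10.9.

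The members, the 40 gene lists and the rule for naming genes were chosen with earlier results of these data known. The rule took called genes of at least 1 CPM with the same direction in all 6 animals and a symbol of their own. Of these it named the 12 largest differences and 5 smallest p-values in each direction. It also named members of the lists. For the sex and treatment differences it named the 5 smallest p-values among genes with a symbol of their own. Levels were compared within genes only. Some list members are counted but not reported here by name.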

Additional observations from a re-analysis of the deposited data

Results flagged for a closer look

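The rule for a library far from the other 5 sets apart about 1 in 20 groups by chance, if independent and normally spread. The groups here share libraries, and their genes were chosen with these data known, so the count is a description. In 134 groups of 6 libraries (46 genes and 21 marker lists in each region), 12 had 1 library far from the other 5. The dorsal library of female A was the one apart in 5 of them: highest for Sstr1 (6.71 CPM), Gabra3 (116 CPM), Kcnf1 (99.6 CPM) and the summed neocortex markers (496 CPM), and lowest for the summed thalamus and habenula markers (42.1 CPM). The ventral library of female A was highest for Oprk1 (4.68 CPM). Female B was highest in the dorsal group for Ttr (5190 CPM) and for the summed choroid plexus markers (7430 CPM). Male C was highest for Aldh1a1 in the ventral group (38.4 CPM) and for Wnt7b in the dorsal group (37.9 CPM). Male B was highest for Adra2a in both regions (11.3 CPM dorsally and 22 CPM ventrally). All these genes except Ttr were called in the direction given above.

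The effect of region differed between the sexes for Ccl21b, by -2.44 (log2, female minus male), a test of the difference itself that passed the threshold.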

How the results depend on the processing

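The main fits pair the regions by animal. Without the pairing (no replicate block) the calls fell to 3017 for the region difference, 1144 in males, 724 in females and 0 for the sex difference. With the choroid plexus covariate they were 3077 over both sexes and 1246 in males. Without the low-count filter the sex difference was called for 9 genes and the treatment difference for 1. Leaving out 1 animal at a time gave 3505 to 5102 calls for the region difference, 1778 to 3267 in males, 830 to 2123 in females, 0 to 3 for the sex difference and 0 to 1 for the treatment difference. Without saline-sired male C and female C together, a setting chosen after seeing the data, the treatment difference was called for 1 gene. RLE scaling, the non-robust fit, DESeq2 and the spread of all 24 libraries gave 4813, 4782, 4218 and 4631 calls for the region difference. Of 284 list members called, 172 were called under all 13 alternatives, 92 calls were lost without the pairing, 63 with the covariate, 52 without female B and 42 without female C, and no direction changed. Depth limits genes under about 1 CPM, such as Eomes and Avpr1b, whose values rest on few counts.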

Other observations

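The stretch of chromosome 12 from Dlk1 to Dio3 was looked at after the values of its end genes were seen. It carries Dlk1 and Dio3, expressed mainly from the paternal copy, and between them long noncoding RNAs expressed mainly from the maternal copy. Of these, Meg3 was at 207 ± 74.3 CPM in dorsal and 239 ± 58.3 CPM in ventral libraries (mean and SD, n = 6) and was not called (log2 fold change 0.24 ± 0.23, adjusted p = 0.53 in edgeR's test). Rian was called at 0.36 ± 0.053 (adjusted p = 3.19e-04), higher in 6 of 6 animals, and Mirg was not (0.11 ± 0.11, adjusted p = 0.494). AL591207.3, a noncoding RNA that starts beside Dio3, was called at 2.24 ± 0.42 (adjusted p = 0.00158), from levels of 0.0812 ± 0.0706 CPM dorsally to 0.38 ± 0.20 CPM ventrally (mean and SD, n = 6). Dlk1 and Dio3 differed by 3.27 and 4.26.

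Several neuropeptides and their receptors differed along the axis in opposite directions, as Pdyn (-0.77) and Oprk1 (2.01) or Penk (-0.80) and Oprm1 (1.72), and others in the same direction, as Trh (1.28) and Trhr (3.43), Tac2 (0.54) and Tacr3 (3.35) or Tac1 (0.59) and Tacr1 (1.01). Each of these values passed the threshold by itself, but Trh lost its call under 4 of 13 alternatives and Tac2 under 1. The pairs were picked after their values were seen, and no test of the pairs was made.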
